A study of Arabidopsis thaliana with 20 samples.

Results

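From the mitochondrial genome of Arabidopsis thaliana, a rule on gene symbols took 22 probe sets of 15 genes among the 22810 probe sets of the array. A probe set was taken when the platform annotation gave it exactly 1 gene and that gene's symbol began with nad, cox, cob, ccb, ccm or orf in lower case, or with ATMG. No probe set with a cob or ATMG symbol met that rule. Mitochondrial genes with atp, rps, rpl or matR symbols were outside it, as were the 8730 tested probe sets with no gene listed. All 15 symbols matched a gene of the mitochondrial chromosome in the RefSeq gene table (assembly TAIR10.1) by symbol or synonym. The rule itself reads gene names and no measured value.

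The arrays came from the apical 1 cm of roots of 7-day-old seedlings (Col-0) that carried FLAG-RPL18B, an epitope-tagged protein of the large subunit of cytosolic ribosomes. The tested condition was 2 h of hypoxia, imposed with argon, and the control was 2 h in air under the same dim light. Polysomal RNA was immunopurified with the tag from lines carrying p35S, a broadly active promoter, pSCR, active in the endodermis per the labels, or pSHR or pWOL, both active in the vascular tissue. Total RNA came from the p35S genotype, as a portion of cleared lysate set aside ahead of the purification. Each of the 5 RNA populations was hybridised in hypoxia and in air on 2 arrays each, which gave 10 groups and 20 arrays. Nothing in the labels says whether both arrays of a group trace back to different batches of seedlings, so each p-value refers to array-to-array spread that may be technical. They name no number of independent transgenic lines per promoter.

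Plant mitochondria keep a small genome for a core of the respiratory chain: several membrane and peripheral subunits of NADH dehydrogenase (complex I), apocytochrome b of complex III, core subunits of cytochrome c oxidase (complex IV), parts of the ATP synthase, and the proteins that attach haem to cytochrome c. The remaining subunits of these complexes are made from nuclear genes. Mitochondrial transcripts are extensively edited and spliced, some of them in trans, and are translated inside the organelle by ribosomes of its own, which do not contain RPL18. The mRNAs of the nuclear subunits are translated by cytosolic ribosomes. The extraction buffer held detergents, cycloheximide, which stalls cytosolic ribosomes, and chloramphenicol, which stalls organellar ones.

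By role, 8 genes with 15 probe sets encoded complex I subunits: nad1 with 7 probe sets, nad5 with 2, and nad2, nad4, nad4L, nad6, nad7 and nad9 with 1 each. The genes cox1 and cox2 encode the catalytic core subunits of complex IV. The cytochrome c maturation genes appeared under older symbols: ccb206 is ccmB, a membrane component of the haem transport machinery, and ccb452, ccb382 and ccb203 are ccmFC, ccmFN1 and ccmFN2, parts of the haem lyase. The open reading frame orfX is mttB in the gene table, a TatC-like membrane protein. In that table nad4 lies between ccmFC (ccb452) and mttB (orfX), with no other protein-coding gene between them. The names of 4 members end in _s_at, which marks probes shared by more than 1 transcript. Nuclear chromosome 2 of this species carries a large copy of the mitochondrial genome. A further 4 probe sets paired nad1, cox3 or cob with a chromosome 2 locus and were outside the rule.

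Signals were low. The deposited values are log2 RMA signals, and those of the members ranged from 3.63 to 8.33. By the mean over the 20 arrays, 20 of the 22 lay below the median of all tested probe sets (6.53), 8 lay among the dimmest 25% (below 5.01), and 0 lay among the brightest 25%. Probe sets bind with different strength, so this describes the signal available to a test and not transcript abundance. On any 1 array between 0 and 4 members exceeded the array's own median.

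**Figure D1:**
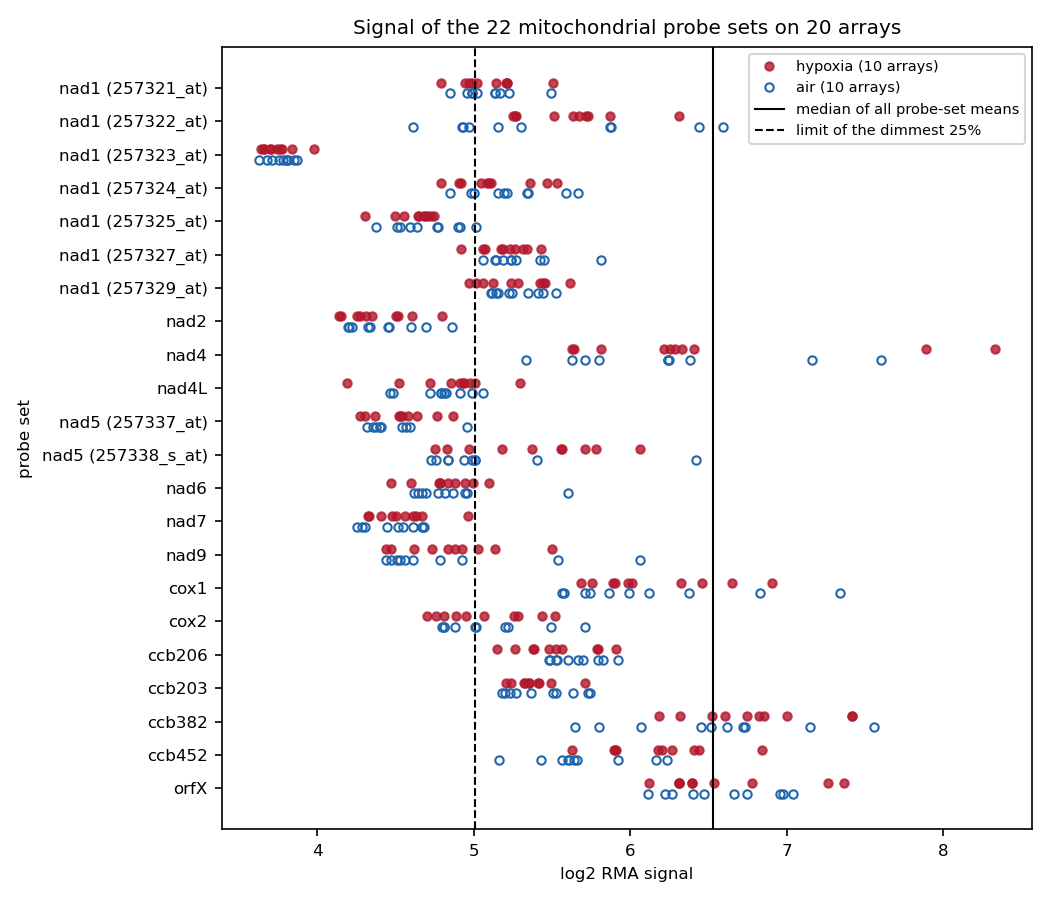
Log2 RMA signal (x axis) of each of the 22 mitochondrial probe sets (rows) on the 10 hypoxia arrays (filled) and the 10 air arrays (open). The solid line is the median of all probe-set means (6.53) and the dashed line the limit of the dimmest 25% (5.01); hypoxia and air points overlap for every probe set.

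Array medians of all probe sets ran from 6.41 to 6.55, and replicates correlated at 0.965 to 0.984 across probe sets. A control probe set for 25S ribosomal RNA read 10.2 in replicate 2 of pSCR hypoxia and 12.7 to 14.3 on the other arrays. The 3′ minus 5′ difference of the GAPDH controls, a sign of RNA or product length, ranged from 3.16 to 4.08 in p35S arrays and from 3.95 to 5.11 in all others. Of the cell type markers named on the array, the ground-tissue factor JKD averaged 7.84 in pSCR hypoxia and 8.80 in pSCR air, against 7.16 and 7.33 in total RNA under the same treatments. JKD was highest in the vascular line pWOL, at 8.67 in hypoxia and 9.48 in air, and averaged 7.54 and 8.44 in pSHR. The endodermis and ground-tissue marker GSO1 was highest in pSCR, at 9.73 in hypoxia and 11.1 in air. In hypoxia GSO1 averaged 9.65 in pSHR, 9.62 in pWOL and 8.85 in total RNA. In air GSO1 averaged 9.65 in pSHR, 9.20 in pWOL and 9.82 in total RNA. The vascular regulator PHV averaged 8.80 to 10.2 over the 8 polysomal groups, pSCR included, against 8.07 in hypoxia and 7.95 in air in total RNA, so it did not set pSHR and pWOL apart. Over all groups the stele markers LHW and OPS were highest in p35S, at 8.62 in air for LHW and 5.95 in hypoxia for OPS. In the other treatment p35S did not lead. LHW in hypoxia averaged 8.28 in pSHR and 8.25 in p35S, and OPS in air averaged 5.78 in pSCR and 5.75 in p35S. The cortex marker AT1G09750 averaged 9.70 in hypoxia and 10.6 in air in pWOL, against 9.26 and 9.56 in total RNA. It lay between 7.18 and 9.48 in the other polysomal groups. The other cortex marker, AT1G62500, lay between 4.92 and 5.42 in all groups. The root hair markers EXPA7 and EXPA18 were highest in total RNA in both treatments, at 9.29 and 10.5 in air. In air EXPA7 averaged 8.37 in pSCR, 8.47 in pSHR and 8.11 in pWOL, against 6.82 in p35S. EXPA18 averaged 8.38, 9.10 and 9.11 in the same order, against 8.07 in p35S. The leaf marker RCA lay between 6.32 and 7.06 in all groups. The probe sets of SCR, SHR and WOL were not analysed here.

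The first question was whether hypoxia altered mitochondrial transcripts in any RNA population. No member passed the test in any single population, and 1, ccb452, passed when the 4 polysomal lines were averaged. With limma's moderated test over all 22746 probe sets and Benjamini-Hochberg adjustment at 0.05, 0 of the 22 members were called in p35S polysomes, where 4.72% of all probe sets were. Likewise 0 were called in pSCR (background 5.96%), 0 in pSHR (4.56%), 0 in pWOL (8.52%) and 0 in total RNA (2.92%). In each of these 5 comparisons exactly 1 member had an unadjusted p below 0.05, a different gene each time. Of all 22746 probe sets, 3793 had such a p in p35S, 4395 in pSCR, 3866 in pSHR, 5009 in pWOL and 2892 in total RNA. Dim probe sets were rarely called: in these comparisons 0.246% to 0.756% of the dimmest 25% and 2.13% to 5.96% of the next 25% passed.

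The median log2 difference of the 22 members, hypoxia minus air, was 0.04 in p35S, 0.03 in pSCR, 0.02 in pSHR, 0.11 in pWOL and -0.11 in total RNA. Over all probe sets the same medians were -0.01, -0.01, -0.02, -0.00 and -0.03. The members divided into both directions in each population: 15 of 22 were positive in p35S, 12 in pSCR, 13 in pSHR, 14 in pWOL and 8 in total RNA. Of all probe sets 48.2%, 48.2%, 46.8%, 49.4% and 45.5% were positive, in the same order. The 95% interval of the difference lay wholly within 1 log2 unit of 0 for 16 members in p35S, 17 in pSCR, 16 in pSHR, 14 in pWOL and 17 in total RNA. For the rest the interval reached past a change of 1 log2 unit.

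**Figure D2:**
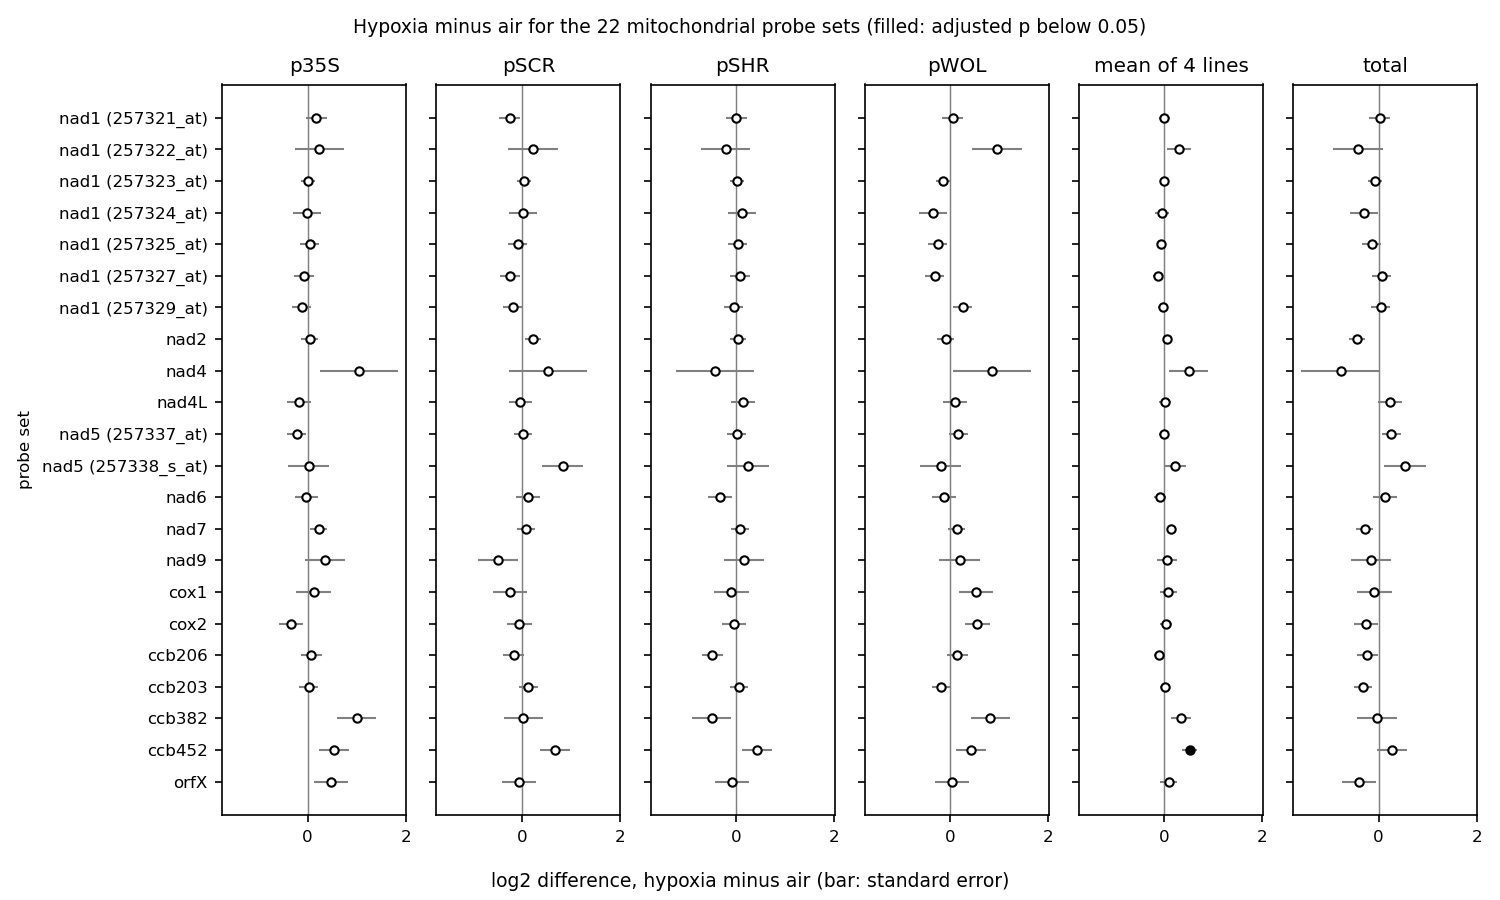
Log2 difference, hypoxia minus air (x axis), with its standard error for each of the 22 mitochondrial probe sets (rows) in the p35S, pSCR, pSHR and pWOL polysomes, their mean, and total RNA. Only ccb452 in the mean of the 4 lines is filled (0.52, adjusted p = 0.0304); nad4 has the widest error (0.80 in each single population).

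The transcript of ccb452 (ccmFC), a haem lyase component for cytochrome c, was the member that rose in the polysomal RNA. In p35S polysomes it read 5.90 and 6.27 in hypoxia, against 5.93 and 5.16 in air. In pSCR it read 6.41 and 6.84 in hypoxia, against 6.23 and 5.66 in air. In pSHR it read 6.18 and 5.89 in hypoxia, against 5.60 and 5.61 in air. These pairs did not overlap in pSCR or pSHR, and in p35S 1 air array (5.93) lay just above the lower hypoxia array (5.90). In pWOL it read 6.20 and 5.63 in hypoxia, against 5.43 and 5.57 in air, without overlap. Total RNA read 5.91 and 6.44 in hypoxia, against 5.64 and 6.17 in air, and these overlapped. Here and below, overlap only describes the arrays and is not a test. The share of all probe sets whose arrays separate in this way is not given.

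The log2 difference of ccb452 was 0.54 in p35S, 0.68 in pSCR, 0.43 in pSHR, 0.42 in pWOL and 0.27 in total RNA, each with a standard error of 0.31 and none called alone (adjusted p from 0.252 to 0.841). Averaged over the 4 lines it was 0.52 ± 0.16 (SE), a 1.43-fold rise, with a limma adjusted p of 0.0304 (8 hypoxia and 8 air arrays). Over those arrays the level was 6.17 ± 0.37 in hypoxia and 5.65 ± 0.32 in air (SD, n = 8 each). In this averaged comparison 1 of 22 members was called, against 20.5% of all probe sets, 3.32% of the dimmest 25% and 18.7% of the next 25%. The members' median was 0.02, that of all probe sets was -0.02, and the intervals of 21 members lay within 1 log2 unit of 0. The probe set's name marks its probes as shared.

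That call depended on single arrays. Leaving out p35S air 2, p35S hypoxia 2, pSCR air 2, pSCR hypoxia 2, pSHR air 1, pSHR air 2, pSHR hypoxia 1, pWOL air 1 or pWOL hypoxia 1 ended it, at adjusted p from 0.0513 to 0.0786. Its difference stayed between 0.42 and 0.61 over all 16 such fits. Without pSCR hypoxia 2, the array with the low 25S signal and the highest ccb452 value (6.84), the difference was 0.46 with an adjusted p of 0.0728.

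The other cytochrome c maturation genes were not called. The transcript of ccb382 (ccmFN1) read 7.01 and 7.42 in p35S hypoxia, against 6.62 and 5.80 in air, a difference of 1.00 ± 0.40 (unadjusted p = 0.0271, adjusted p = 0.215). In pWOL it read 6.61 and 6.75 in hypoxia, against 5.65 and 6.07 in air, a difference of 0.82 with an adjusted p of 0.256. The pairs did not overlap in either line. In pSHR the order was the other way: ccb382 read 6.82 and 6.19 in hypoxia, against 7.56 and 6.46 in air, a difference of -0.50 (adjusted p = 0.624). The haem transport gene ccb206 (ccmB) had its largest difference in pSHR, -0.48, with an unadjusted p of 0.0417 and an adjusted p of 0.268. The remaining one, ccb203 (ccmFN2), stayed between -0.31 in total RNA and 0.13 in pSCR.

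Among the complex I genes, nad4, a membrane-arm subunit, had the widest spread between replicates, with a within-group SD of 0.91. In p35S it read 5.63 and 8.33 in hypoxia, against 6.24 and 5.63 in air. In pSCR it read 7.89 and 5.81 in hypoxia, against 6.24 and 6.38 in air. In both lines 1 hypoxia array stood far above its replicate, and the groups overlapped. In pSHR the high array was an air array: 6.29 and 6.25 in hypoxia, against 7.60 and 5.80 in air. In pWOL it read 6.41 and 6.33 in hypoxia, against 5.71 and 5.34 in air, without overlap. Total RNA read 5.64 and 6.22 in hypoxia, against 6.25 and 7.16 in air, also without overlap and in the other direction. The nad4 differences were 1.04 in p35S, 0.54 in pSCR, -0.43 in pSHR, 0.84 in pWOL and -0.77 in total RNA, each with a standard error of 0.80 and adjusted p from 0.593 to 0.881. Leaving out the highest array of the line turned the sign in 3 of them, to -0.31 in p35S, -0.50 in pSCR and 0.47 in pSHR.

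The 7 probe sets of nad1, a core membrane subunit whose mRNA is joined from separately transcribed pieces, did not move alike. In pWOL 257322_at read 5.71 and 5.73 in hypoxia, against 4.61 and 4.92 in air, a difference of 0.96 ± 0.50 (adjusted p = 0.293). The other 6 nad1 probe sets had differences in pWOL between -0.34 and 0.26. In a fit of the 4 pWOL arrays alone, 257322_at was called at an adjusted p of 0.0333, which made the pWOL count 1 in place of 0. The same probe set differed by -0.42 in total RNA and by -0.21 in pSHR. The nad5 pair also diverged: in pSCR 257338_s_at differed by 0.83 and 257337_at by 0.02, neither of them called.

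The other complex I genes gave small differences. In total RNA nad2 read 4.14 and 4.27 in hypoxia, against 4.60 and 4.69 in air, a difference of -0.44 (unadjusted p = 0.0200, adjusted p = 0.251) without overlap. In polysomes nad2 differed by between -0.10 (pWOL) and 0.22 (pSCR). The peripheral-arm genes nad7 and nad9 ranged from -0.28 to 0.22 and from -0.49 to 0.36 over the 5 populations. The membrane-arm genes nad4L and nad6 ranged from -0.17 to 0.23 and from -0.32 to 0.14.

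Of the complex IV genes, cox2 read 5.52 and 5.28 in pWOL hypoxia, against 4.81 and 4.88 in pWOL air, without overlap. The difference was 0.55 ± 0.25 (unadjusted p = 0.0430, adjusted p = 0.207), and in the other populations cox2 differed by between -0.34 (p35S) and -0.05 (pSHR). The transcript of cox1 differed by 0.52 in pWOL, by 0.12 in p35S, by -0.24 in pSCR, by -0.10 in pSHR and by -0.08 in total RNA. The membrane protein gene orfX read 6.78 and 7.37 in p35S hypoxia, against 6.98 and 6.23 in air, and these overlapped. Its differences ran from -0.40 in total RNA to 0.47 in p35S.

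Whether the hypoxia difference of a cell-type line departed from that of p35S was tested as an interaction. No member was called for pSCR minus p35S, where 0.0264% of all probe sets were, for pSHR minus p35S, where 0% were, or for pWOL minus p35S, where 0.158% were. At an unadjusted p below 0.05 these had 0, 1 and 1 members, against 2264, 2291 and 2993 of all 22746 probe sets. The ccb382 difference was lower in pSHR than in p35S by 1.50 log2 units (-1.50 ± 0.57, adjusted p = 0.374). The cox2 difference was higher in pWOL than in p35S (0.89 ± 0.35, adjusted p = 0.284). The 3 comparisons share the p35S arrays.

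**Figure D3:**
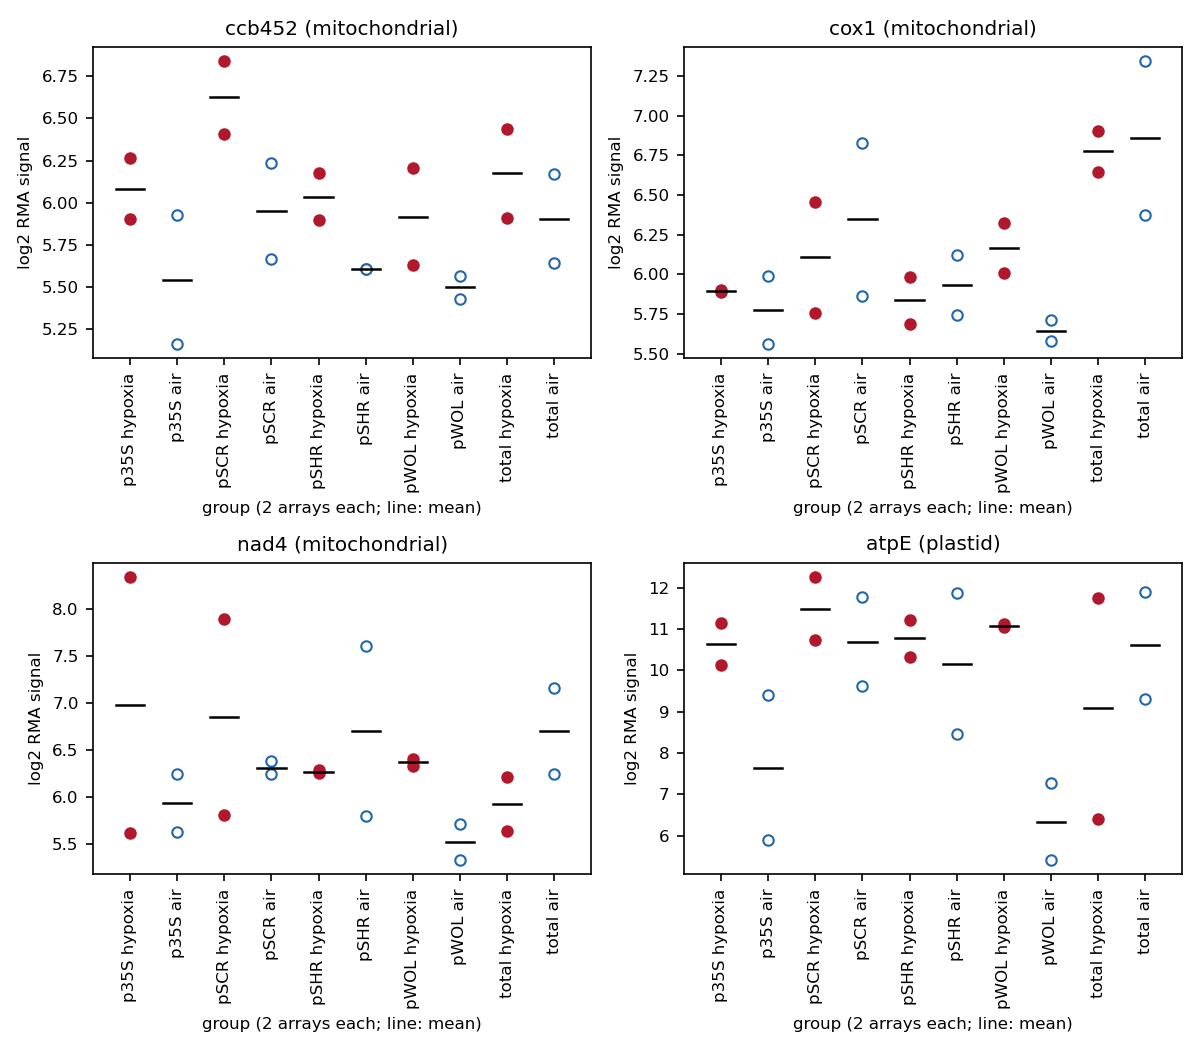
Log2 RMA signal (y axis) on each array of ccb452, cox1 and nad4, and of the plastid gene atpE, by group (x axis, 2 arrays each; filled points hypoxia, open points air; the horizontal lines are group means). The ccb452 mean is higher in hypoxia in all 5 populations, cox1 is high in total RNA, and nad4 and atpE differ widely between replicates.

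The second question was whether mitochondrial transcripts differed between RNA that came down with tagged cytosolic ribosomes and total RNA. The one gene that passed was cox1, a catalytic subunit of complex IV, which was lower in pSHR and pWOL polysomes than in total RNA. Total RNA came from root tips of the p35S genotype, so pSHR and pWOL also differed from it in line and labelled tissue. RNA fraction, line and cell type cannot be told apart in the comparisons of pSCR, pSHR and pWOL with total RNA. In pSHR polysomes cox1 read 5.69 and 5.99 in hypoxia and 6.12 and 5.74 in air. In pWOL polysomes it read 6.01 and 6.32 in hypoxia and 5.58 and 5.71 in air. In total RNA it read 6.65 and 6.90 in hypoxia and 6.38 and 7.34 in air. Every pSHR and pWOL array lay below every total RNA array. With the treatments averaged, the level was 5.88 ± 0.20 in pSHR and 5.91 ± 0.33 in pWOL, against 6.82 ± 0.41 in total RNA (SD, n = 4 each).

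The cox1 difference was -0.93 ± 0.25 (SE) for pSHR minus total RNA, a level 1.91-fold lower (limma adjusted p = 0.0239), and -0.91 ± 0.25 for pWOL minus total RNA, 1.88-fold lower (adjusted p = 0.0208). Both comparisons use the same 4 total RNA arrays. In each, 1 of 22 members was called, against 14.1% of all probe sets for pSHR and 18.8% for pWOL. The call for pSHR was lost without total air 2, total hypoxia 1, total hypoxia 2, pSHR air 2 or pSHR hypoxia 1, at adjusted p from 0.0507 to 0.101. It was also lost in a fit of the compared arrays alone (adjusted p = 0.0523). The call for pWOL was lost without total air 2, total hypoxia 2, pWOL air 1 or pWOL hypoxia 1, at adjusted p from 0.0603 to 0.0925. Over these leave-one-out fits the difference ranged from -1.18 to -0.69 for pSHR and from -1.15 to -0.67 for pWOL. In the comparison without pWOL air 1, nad6 was called in place of cox1 (0.51 higher in pWOL); without total air 1, cox2 was called beside cox1 in pSHR (-0.63). Without total hypoxia 1, cox2 was called in place of cox1 in pSHR (-0.62, adjusted p = 0.0453).

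In pSCR polysomes cox1 read 6.46 and 5.76 in hypoxia and 5.87 and 6.83 in air, so that 2 of the 4 arrays overlapped the total RNA range. The difference from total RNA was -0.59 ± 0.25 (adjusted p = 0.149), and 0 of 22 members were called, against 12.6% of all probe sets. Without pSCR air 2, the array at 6.83, cox1 was called at -0.83 (adjusted p = 0.0478).

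The p35S polysomes and the total RNA came from the same genotype. That total RNA was set aside from cleared lysate, but the labels do not match single total RNA and p35S arrays to a lysate. The main fit did not pair them. Replicate 1 deviations of these 2 groups correlated at 0.03 across probe sets in hypoxia and -0.33 in air. In hypoxia cox1 read 5.90 and 5.89 in p35S polysomes, against 6.65 and 6.90 in total RNA. In air it read 5.99 and 5.56 in p35S polysomes, against 6.38 and 7.34 in total RNA. The arrays did not overlap in either treatment. The differences were -0.88 ± 0.35 in hypoxia (adjusted p = 0.211) and -1.08 ± 0.35 in air (adjusted p = 0.0880), and neither passed. Without total air 1 the air difference was -1.57 and was called (adjusted p = 0.0473). The GAPDH 3′ minus 5′ difference averaged 3.68 in p35S, 4.37 in pSCR, 4.54 in pSHR and 4.57 in pWOL, against 4.55 in total RNA. The mean differed from that of total RNA by -0.867 in p35S, -0.180 in pSCR, -0.0080 in pSHR and 0.024 in pWOL. Its part in the cox1 differences was not tested.

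No member was called for p35S polysomal minus total RNA in hypoxia, where 2.88% of all probe sets were, or in air, where 6.32% were. In hypoxia 5 members had an unadjusted p below 0.05, against 3858 of all 22746 probe sets. These 5 went in both directions: orfX (0.82), nad2 (0.49) and nad7 (0.49) were higher in the polysomes, and nad4L (-0.59) and cox1 were lower. In air only cox1 had such a p, against 4586 of all probe sets. There 18 of 22 members were lower in the polysomes, with a median of -0.21, and of all 22746 probe sets 11730 were lower. The members' median difference was 0.00 in hypoxia, and over all probe sets it was 0.00 in hypoxia and -0.01 in air. In air the median signal of the members was 5.08 and 5.47 on total RNA arrays 1 and 2. On p35S air arrays 1 and 2 it was 5.25 and 4.98, so these groups overlapped. The members share these arrays, so their signs are not independent. The intervals lay within 1 log2 unit of 0 for 14 members in hypoxia and 15 in air. The hypoxia minus air change of the polysomal minus total difference called no member, against 0.0132% of all probe sets. An unadjusted p below 0.05 was found for 0 members, against 1478 of all 22746 probe sets. The largest member value of this change was that of nad4, 1.82 ± 1.13 (adjusted p = 0.863).

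Apart from cox1, all members lay between -0.45 and 0.37 of total RNA in the 3 cell-type lines. The median difference was 0.05 for pSCR, -0.09 for pSHR and -0.07 for pWOL, and the intervals of 20, 19 and 19 members lay within 1 log2 unit of 0. After cox1, the largest differences in pSHR were those of cox2 (-0.45, adjusted p = 0.110), nad5 257338_s_at (-0.44, adjusted p = 0.383) and nad4L (-0.38, adjusted p = 0.169), none of them called. The probe set shared by cob and its chromosome 2 copy AT2G07727, which is not a member, read 5.51 and 5.07 in pSHR hypoxia and 6.33 and 4.87 in pSHR air, against 5.58 and 6.20 in total hypoxia and 6.02 and 6.40 in total air. Those ranges overlapped.

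**Figure D4:**
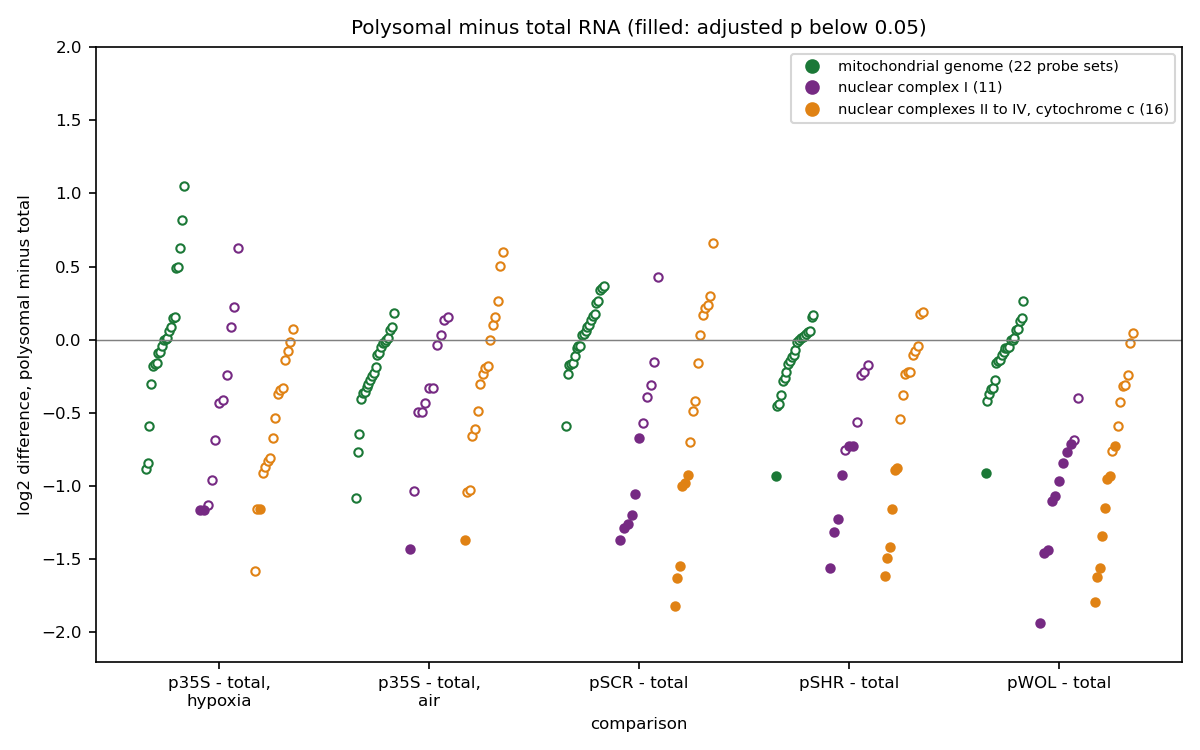
Log2 difference, polysomal minus total RNA (y axis), in the 5 comparisons (x axis), for the 22 mitochondrial probe sets, the 11 nuclear complex I probe sets and the 16 nuclear probe sets of complexes II to IV and cytochrome c (1 point each; filled points passed at 0.05). In the pSCR, pSHR and pWOL comparisons all mitochondrial points but cox1 (-0.59, -0.93 and -0.91) lie between -0.45 and 0.37, while 6, 6 and 9 of 11 nuclear complex I points are called lower in pSCR, pSHR and pWOL.

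The mRNAs of the nuclear partners of these genes are read by cytosolic ribosomes. For part of each complex they were lower in pSCR, pSHR and pWOL polysomes than in total RNA. That total RNA was of the p35S genotype, so RNA fraction, line and cell type cannot be told apart in these line comparisons. Of 22 loci listed for nuclear complex I subunits 11 were measured, with 1 probe set each. Called lower than in total RNA were 6 in pSCR, 6 in pSHR and 9 in pWOL, with 0 called higher. Over all 22746 probe sets 1361, 1472 and 2023 were called lower in the same comparisons (12.6%, 14.1% and 18.8% called in either direction). Of the brightest 25% of probe sets, 22.8%, 24.7% and 34.4% were called in either direction. The complex I subunit AT5G47890 differed by -1.37 in pSCR, -1.23 in pSHR and -1.46 in pWOL (adjusted p = 0.00132, 0.00182 and 0.000319). The subunit AT1G14450 differed by -1.20, -1.56 and -1.94 in the same order. Of 16 probe sets for complexes II to IV and cytochrome c, 6, 6 and 8 were called, all lower. Among them were CYTC-1, which encodes cytochrome c itself (-1.82, -1.62 and -1.79), and SDH2-2, an iron-sulphur subunit of complex II (-0.88 in pSHR and -1.15 in pWOL). In p35S polysomes against total RNA of the same genotype, 3 of the 49 probe sets of the 8 nuclear lists were called in hypoxia and 3 in air, all lower, where 2.88% and 6.32% of all probe sets were called in either direction. Of the 11 complex I probe sets, these calls included 2 in hypoxia and 1 in air. Of 2 probe sets for the ATP synthase, that of AT1G51650 was called lower in all 3 lines (-1.36 in pSCR, -1.10 in pSHR and -1.59 in pWOL). The other was not called and differed by 0.28, 0.35 and -0.0038 in the same order. Of 6 probe sets for mitochondrial ribosomal proteins, 1 was called lower in each line (HLL, a large-subunit protein, -1.20 in pSCR) and 1 higher (AT4G31460, 0.98 in pSHR). No probe set was called in these line comparisons in the lists for alternative respiration, organelle RNA polymerases, RNA processing or cytochrome c maturation. No test compared the nuclear lists with the mitochondrial members, and their signal levels were not matched.

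Under hypoxia, of the 49 nuclear probe sets 0 were called in p35S, 2 in pSCR, 0 in pSHR, 1 in pWOL and 0 in total RNA. Of all probe sets 4.72%, 5.96%, 4.56%, 8.52% and 2.92% were called in these comparisons, so the nuclear counts were not above the background. The 2 in pSCR were AT5G47890 (1.16) and AT3G26782 of the RNA processing list (1.44), and the 1 in pWOL was the complex III list's AT1G51980 (1.51), all higher in hypoxia. In the mean of the 4 lines 4 of the 49 were called, against 20.5% of all probe sets. There FRO1, an iron-sulphur subunit of complex I, fell by 0.63 (adjusted p = 0.00918), AT3G12260 of complex I fell by 0.57 and AT4G32470 of complex III fell by 0.62. The probe set of AT3G49080, listed as a mitochondrial ribosomal protein, rose by 0.34. No probe set was called in the lists for alternative respiration (5 probe sets), organelle RNA polymerases (1) or nuclear cytochrome c maturation (1) in any of these hypoxia comparisons.

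The set most like the members is that of the plastid genome, also transcribed and translated inside an organelle, with 69 single-gene probe sets. Under hypoxia 0 were called in p35S, pSCR, pSHR and total RNA, 2 in pWOL (rpoA, a subunit of the plastid RNA polymerase, 2.91, and petN, of the cytochrome b6f complex, 0.77) and 5 in the mean of the 4 lines, all higher in hypoxia. In that mean 13 of 22 mitochondrial differences were positive, with a median of 0.02, against 53 of 69 plastid ones, with a median of 0.11. These 2 and 5 of 69 stand beside 8.52% and 20.5% of all probe sets called. For polysomal minus total RNA 0 plastid probe sets were called in p35S in hypoxia, 2 in p35S in air (psbJ, -2.89, and psbM, -1.36, both of photosystem II), 1 in pSCR (psbK, also of photosystem II, 0.59), and 0 in pSHR and in pWOL.

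Plastid signals swung widely between replicates, and in some members the same array of a pair was the higher. The plastid gene atpE, a subunit of the chloroplast ATP synthase, read 10.1 and 11.2 in p35S hypoxia, against 9.39 and 5.89 in air. In pWOL it read 11.1 and 11.1 in hypoxia, against 7.26 and 5.41 in air (4.74 ± 1.64, adjusted p = 0.0970). Total RNA read 6.40 and 11.7 in hypoxia, against 9.31 and 11.9 in air, so that the replicates of total hypoxia differed widely. In 9 of 10 groups the array with the higher atpE value also had the higher nad4 value, in 8 for orfX and for cox2, and in 7 for ccb382 and ccb452. Over the 22 members this number ran from 3 to 9, and for cox1 it was 5. Set against the median of the 69 plastid probe sets instead, the order was shared in 9 groups for ccb382 and nad9, in 8 for orfX and cox2, and in 7 for nad4, ccb452 and cox1, with a range from 2 to 9 over the members. The gene atpE was picked here after its values were seen. Unrelated probe sets would share the order in 5 of 10 groups on average, and the share over all probe sets is not given. These counts therefore do not show that plastid and mitochondrial signals swung together. Beside the ccb452 result, atpE ranged from 10.1 to 12.3 on the 8 polysomal hypoxia arrays and from 5.41 to 11.9 on the 8 polysomal air arrays. Its part in that result, and in the pWOL differences of nad4, ccb382 and nad1, was not tested. In bulk RNA, fewer organelles or cells and less transcript per organelle cannot be told apart.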

How the data were processed

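Labelled RNA from 20 samples was hybridised to 1-colour expression arrays. The authors' deposited log2 values come from RMA with the affy package, per the submitters' processing notes; versions and build: not given in the sources used here. RMA had already normalized the arrays, so nothing was rescaled, and it compresses low signals. After removal of 64 control probe sets, 22746 were tested: 13513 had 1 gene in the platform annotation, 503 several and 8730 none. With limma 3.58.1 in R 4.3.3, all 20 arrays entered 1 linear model with a mean per group (10 groups, residual degrees of freedom 10, prior 3.30). Each of 15 comparisons was adjusted by Benjamini-Hochberg over all probe sets and called at 0.05. Intervals are 95%. The pSCR, pSHR and pWOL comparisons with total RNA average both treatments. The number of arrays limits precision. The fit was tested on simulated data. Named were members called anywhere, the member with the highest mean of each class, and the 3 largest differences each way per comparison; cox2 in the line differences, nad6 in the leave-one-out fits and atpE were added after values were seen. Members and lists were chosen with earlier results of these data known. Alternatives were scaling, a filter on the dimmest 25%, moderation, blocks, the compared arrays alone and leaving out each array.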

Additional observations from a re-analysis of the deposited data

How the results depend on the processing

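Each count of called members was recomputed under 11 to 23 alternatives. The counts for hypoxia in total RNA, p35S, pSCR and pSHR, for p35S minus total RNA in hypoxia, for its hypoxia minus air change and for the 3 line differences stayed at 0 under all of theirs. With the compared arrays alone, the pWOL hypoxia count was 1 (nad1 257322_at) and the pSHR minus total RNA count was 0. Leaving out 1 array at a time gave 0 to 1 for the mean of the 4 lines, 0 to 1 for p35S minus total RNA in air, 0 to 1 for pSCR, 0 to 2 for pSHR and 0 to 1 for pWOL minus total RNA. The replicate numbers did not pair the arrays: replicate 1 deviations correlated between groups at -0.33 to 0.29. A replicate block changed no count (ccb452 adjusted p = 0.0388, cox1 0.0272 in pSHR and 0.0236 in pWOL). The planned lysate block joined total RNA and p35S arrays of equal number. For cox1 in p35S minus total RNA it gave a limma adjusted p of 0.128 in air and 0.285 in hypoxia. The correlation it estimated within blocks was -0.157, whereas arrays of 1 lysate would be alike. These p-values are therefore not read as those of a paired test. Because total RNA and p35S in air ran against each other (-0.33), a lysate block with crossed numbers was added after the data were seen. It gave 1 call for p35S minus total RNA in air (cox1, adjusted p = 0.0407). The crossing was chosen from these same deviations, so that call is not separate evidence. Median centring, quantile scaling, the 25% filter and trended moderation kept every count, and quantile scaling shifted the medians of all probe sets by -0.03 to 0.04. The cause of these changes was not tested. Low signal and 2 arrays per group both limit what these probe sets can show; their shares were not compared.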
